A study of Homo sapiens with 6 samples.

Results

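The genes described here encode the heat shock protein chaperones and their partners, taken from the RefSeq gene table of GRCh38.p14 by symbol: HSPA, HSPB, HSP90, HSPD1, HSPE1, HSPH1, DNAJA, DNAJB, DNAJC and BAG1 to BAG6. The symbols gave 78 of the 19974 protein-coding genes on chromosomes 1 to 22 and X. Chromatin accessibility was measured by ATAC-seq, which inserts adapters into open DNA with the transposase Tn5, in wild-type hTERT-RPE1 cells. This is a telomerase-immortalised human line derived from retinal pigment epithelium, grown by the supplier's recommendations with no other treatment given in the labels. The 6 libraries form the sets R1 and R2 by their titles, 3 in each, and what distinguishes the sets is not stated. Every value is that of a list made from the merged libraries of a set, so no spread between replicates could be computed and no test was made. On chromosomes 1 to 22 and X the lists held 142865 regions in R1 and 134351 in R2, and the median summit had 72 fragments in each.

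HSP70 proteins, encoded by the HSPA genes, bind and release unfolded stretches of protein in a cycle driven by ATP. J-domain proteins (DNAJA, DNAJB and DNAJC) bring them substrates and trigger ATP hydrolysis, while several BAG proteins and the HSP110 type members HSPA4, HSPA4L and HSPH1 release ADP. HSP90 finishes the folding of kinases and receptors, HSPD1 and HSPE1 form the folding chamber of mitochondria, and the small heat shock proteins (HSPB) hold unfolding proteins in solution. Many of these genes are switched on by heat shock factor 1, HSF1, which binds inverted repeats of the letters GAA called heat shock elements.

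Those elements are shown first, since the accessible promoters are read against them. Promoter sequences are RefSeq windows of 300 bases, from 250 before to 50 after an annotated start, and 70 of the 78 genes had at least 1 window, 91 windows in all. Runs of 3 repeat units (GAANNTTCNNGAA or TTCNNGAANNTTC, sought on both strands, each match also holding shorter pairs) occurred in 7 of the 91 chaperone windows (7.69%), against 0.402% of all 22132 windows of protein-coding genes. The 7 windows belong to HSPA6, HSPA8, HSP90AA1, HSP90AB1, HSPD1, DNAJA1 and DNAJB6, and all 7 overlapped an accessible region in both lists, as did 91.2% of the 91 chaperone windows and 64.9% of all windows. Only exact units were sought, so units with a changed letter were not counted here or below. Each line gives the gene's strand from 5′ to 3′ with the repeat units and their spacers in capitals. HSPD1 had 4 units in a row, and HSP90AB1 and HSPA8 each had a further set of 3 units in the same window.
HSPA6, chr1:161524436-161524508, plus strand: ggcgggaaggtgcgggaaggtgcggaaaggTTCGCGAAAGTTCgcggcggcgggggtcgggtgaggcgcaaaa
DNAJB6, chr7:157336843-157336915, plus strand: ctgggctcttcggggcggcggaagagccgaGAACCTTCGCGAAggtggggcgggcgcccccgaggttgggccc
HSPA8, chr11:123062171-123062199, minus strand: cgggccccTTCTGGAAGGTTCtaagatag
HSP90AA1, chr14:102087112-102087140, minus strand: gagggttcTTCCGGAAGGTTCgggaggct
HSP90AB1, chr6:44247823-44247851, plus strand: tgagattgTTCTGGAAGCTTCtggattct
HSPD1, chr2:197500065-197500090, minus strand: gcattTTCTGGAAAGTTCTGGAAccg
DNAJA1, chr9:33025268-33025296, plus strand: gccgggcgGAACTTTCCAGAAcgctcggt

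A gene was counted as having a gene-end region when a region of a list came within 1000 bp of either end of its annotated interval. Both lists marked 70 of the 78 chaperone genes (89.7%), against a background of 73.9% of all protein-coding genes. In R1 alone the count was 70 against a background of 75.5%, and in R2 alone 71 against 75.0%. HSP90 genes (3 of 3), HSPD1, HSPE1 and HSPH1 (3 of 3) and BAG genes (6 of 6) had one throughout. HSPA genes had one in 13 of 14 cases, DNAJC in 27 of 29, HSPB in 6 of 7, DNAJA in 3 of 4 and DNAJB in 9 of 12. DNAJA4, DNAJB1, DNAJB7, DNAJB8, DNAJC5B, HSPA2 and HSPB9 had none in either list, and DNAJC12 had a weak one in R2 alone.

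**Figure D1:**
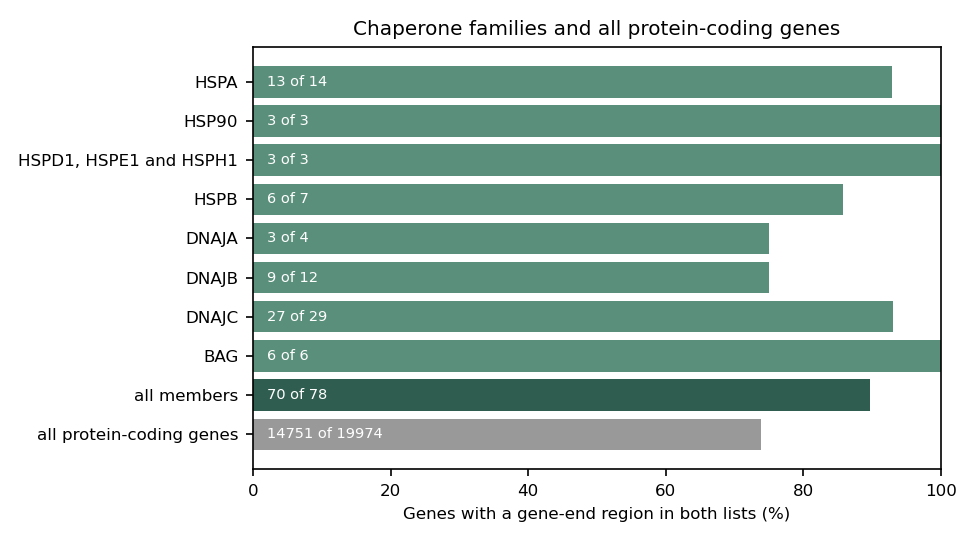
Share of genes with a region within 1000 bp of a gene end in both lists (%, horizontal axis) for each chaperone family, for all 78 chaperone genes and for all protein-coding genes; counts are printed in the bars. The chaperone genes as a whole reached 89.7% and all protein-coding genes 73.9%, and DNAJA and DNAJB had the lowest shares among the families, at 75.0%.

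The strength of a region is given as the authors' fold enrichment over background, a ratio that belongs to 1 region of 1 list. The median fold of the strongest gene-end region was 7.37 (R1) and 7.38 (R2) among the chaperone genes, and 7.36 and 7.44 among all protein-coding genes with a region. The fold of the typical chaperone gene therefore sat in the middle of the distribution, with 35 of 70 above the median of all genes in R1 and 34 of 71 in R2. Regions of at least the median fold of their list were found in both lists at 60 of the 78 genes (76.9%), against 57.3% of all protein-coding genes. Genes without any region are counted in both shares, so this difference includes that in how often a gene had a region.

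Fragment numbers stood higher. The number of fragments over each summit, recovered from the fold and the p-value, had a median of 377.5 in R1 and 371 in R2 at the chaperone genes, and of 283 and 301 at all protein-coding genes. The unit is called fragments throughout, though the sources used here do not say whether fragments, reads or cut ends were counted. In R1, 55 of the 70 chaperone genes with a region (78.6%) lay above the median of all genes, and in R2 53 of 71 (74.6%) did. The recovered background, to which the fold is relative, was higher too, with medians of 49.9 and 50.1 fragments at the chaperone genes and 34.5 and 35.9 at all genes. Their regions were wider, at a median of 1635.5 bp in R1 and 1561 bp in R2, against 1347 and 1431 bp. Whether width, base composition or neighbouring genes account for the higher fragment numbers was not tested.

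**Figure D2:**
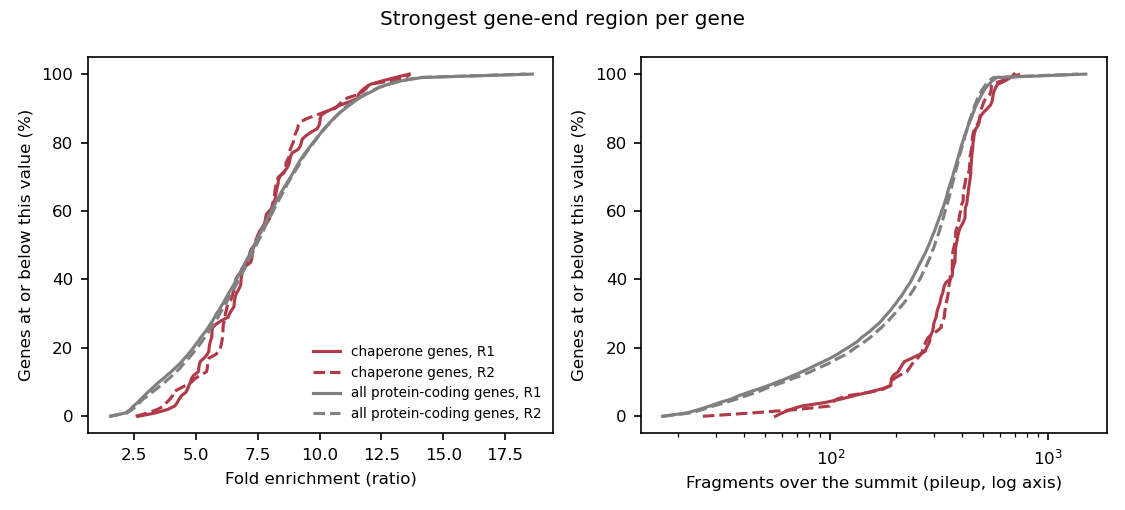
Cumulative share of genes (%, vertical axes) by the fold enrichment (left) and by the fragments over the summit on a log axis (right) of the strongest gene-end region, for chaperone genes (red) and all protein-coding genes (grey) in R1 (solid) and R2 (dashed). The fold curves cross near their medians of 7.37 and 7.36 in R1, while the fragment curve of the chaperone genes lies to the right, with medians of 377.5 and 283 in R1.

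Among the HSP70 genes, the constitutive HSPA8 and the inducible HSPA1A and HSPA1B had lower folds than the heat-inducible HSPA6. HSPA8, the constitutive cytosolic HSP70, had folds of 5.54 (R1) and 5.42 (R2), with 465 and 446 fragments. The inducible pair HSPA1A and HSPA1B had folds of 5.65 and 4.69 in R1 and of 6.19 and 5.02 in R2. HSPA6, an HSP70 gene known for being almost silent until cells are heated, had 10.09 in R1 and 9.13 in R2, with 394 and 351 fragments over its summit. Its region spans chr1:161523531-161525118 in R1 and covers the annotated start and the 3-unit element printed above. HSPA6 thus stood above HSPA8, HSPA1A and HSPA1B in fold in both lists, while its fragment number in R2 was below those of the other 3 genes. The region is also at the end of FCGR2A, an antibody receptor gene. A pseudogene close to it in sequence, HSPA7, was marked at its ends in both lists too, and how reads that map to both were treated is not given in the sources used here.

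HSPA12A, a divergent family member, had the highest fold of the HSPA genes, 11.57 in R1 and 11.67 in R2, at its outer start, in a region also at the end of ENO4, and 6.18 and 7.82 at an inner start. Its relative HSPA12B was the lowest, with 4.14 and 3.84 and with 124 and 111 fragments, in a region also at the end of ADISSP. HSPA9, the mitochondrial HSP70, had 9.31 and 8.94, and HSPA13, a microsomal form, had 9.25 and 8.35. HSPA14, which works at the ribosome, had 8.69 and 8.64 in a region shared with CDNF and MSANTD7, and the nucleotide exchange factors HSPA4 and HSPA4L had 7.53 and 7.86 in R1 and 7.93 and 8.06 in R2. These 5 genes kept within a fold of 7.53 to 9.31 over both lists.

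HSPA5 encodes BiP, the HSP70 of the endoplasmic reticulum, and its strongest gene-end region was not its promoter. The strongest lay past the 3′ end, at folds of 8.34 (R1) and 7.53 (R2) with 218 and 198 fragments, and is also at the end of RABEPK. The region over the annotated start had the lower fold, 5.85 in R1 and 5.45 in R2, and more fragments, 441 and 382. By fold the 3′ region ranked first and by fragments the promoter did, in both lists.

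The HSPA5 and HSP90B1 promoters were the only chaperone promoters with an endoplasmic reticulum stress element, the site at which ATF6 acts with NF-Y during the unfolded protein response. It was sought as CCAAT, 9 bases and CCACG on both strands, and it occurred in 2 of the 91 chaperone windows (2.20%) and in 0.104% of all windows. HSP90B1, the HSP90 of the endoplasmic reticulum, has 2 copies in its window, and the one nearer the start runs on the opposite strand. Capitals mark the element in these lines, and both windows were accessible in both lists.
HSPA5, chr9:125241361-125241439, minus strand: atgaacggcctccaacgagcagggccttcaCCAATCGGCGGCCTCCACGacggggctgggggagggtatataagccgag
HSP90B1, chr12:103930291-103930369, plus strand: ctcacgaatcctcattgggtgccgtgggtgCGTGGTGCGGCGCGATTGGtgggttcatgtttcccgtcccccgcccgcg

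HSPA1A and HSPA1B are neighbouring copies on chromosome 6 whose promoters were identical at 277 of 301 aligned positions (92.0%), with an unbroken shared run of 49 bases. Each carries an exact match to a 2-unit heat shock element, with its letters in capitals, about the same distance before its start. Whether inexact units extend it was not examined. A TATAAA box that the next lines do not reach follows further down. Against HSPA6, HSPA8 and HSPA2 the HSPA1A promoter had an identity of 50.8%, 50.6% and 52.0%. Since reads from the near-identical stretches could come from either copy, the separate values of HSPA1A and HSPA1B are uncertain.
HSPA1A, chr6:31815407-31815474, plus strand: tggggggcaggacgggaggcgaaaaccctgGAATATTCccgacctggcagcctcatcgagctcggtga
HSPA1B, chr6:31827603-31827670, plus strand: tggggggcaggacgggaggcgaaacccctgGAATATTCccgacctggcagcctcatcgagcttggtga

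HSPA1L, an HSP70 gene known for expression in testis, starts 260 bp from HSPA1A on the other strand and shares its region, so the fold of 5.65 in R1 and 6.19 in R2 is 1 measurement for both genes. The 250 bases before the HSPA1A start contain the element of both, and are given whole because they hold a CCAAT box (as attgg) on each side of the element in capitals, and the TATAAA box nearest the start.
HSPA1A, chr6:31815293-31815542, plus strand: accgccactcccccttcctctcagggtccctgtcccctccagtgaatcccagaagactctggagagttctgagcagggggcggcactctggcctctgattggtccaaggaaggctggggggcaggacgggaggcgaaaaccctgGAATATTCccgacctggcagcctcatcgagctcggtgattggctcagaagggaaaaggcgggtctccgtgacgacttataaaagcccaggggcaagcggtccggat

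HSPA2, which is highly expressed in testis, was missed at the gene ends although its promoter was accessible. Its annotated interval begins well before the start in the promoter table, and a region of fold 7.07 in R1 and 7.49 in R2, with 393 fragments in each, overlapped the promoter window. The same held for DNAJB1, the main heat-inducible J-domain partner of HSP70. A region of fold 8.30 and 8.49 covered its outer start, and one of 5.71 and 5.98 overlapped the windows of 2 inner starts, each with a 2-unit element in its window. The lines give the 2 elements before the start that lies further upstream. DNAJB1 also had 22 shared regions within 50000 bp, the most of any chaperone gene, against a median of 10.5 for the chaperone genes and 10 for all protein-coding genes.
DNAJB1, chr19:14518456-14518485, minus strand: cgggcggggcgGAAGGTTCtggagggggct
DNAJB1, chr19:14518426-14518455, minus strand: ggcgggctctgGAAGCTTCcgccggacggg

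HSP90AA1 encodes the inducible cytosolic HSP90 and HSP90AB1 the constitutive one. The outer start of HSP90AA1 had folds of 7.67 (R1) and 7.68 (R2), in a region that also covers the divergent start of WDR20, 148 bp away. The inner start, which holds the 3-unit element printed above, had 6.89 and 6.44 and lay too far from a gene end to be counted by the interval rule. HSP90AB1 had 5.92 and 5.99 in a single wide region over its 3 starts, and HSP90B1 had 5.39 and 5.47. By these gene-end regions the 3 genes kept the same order in both lists, with fragment numbers between 417 and 451. The region at the inner start of HSP90AA1 had fewer, 314 in R1 and 325 in R2.

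**Figure D3:**
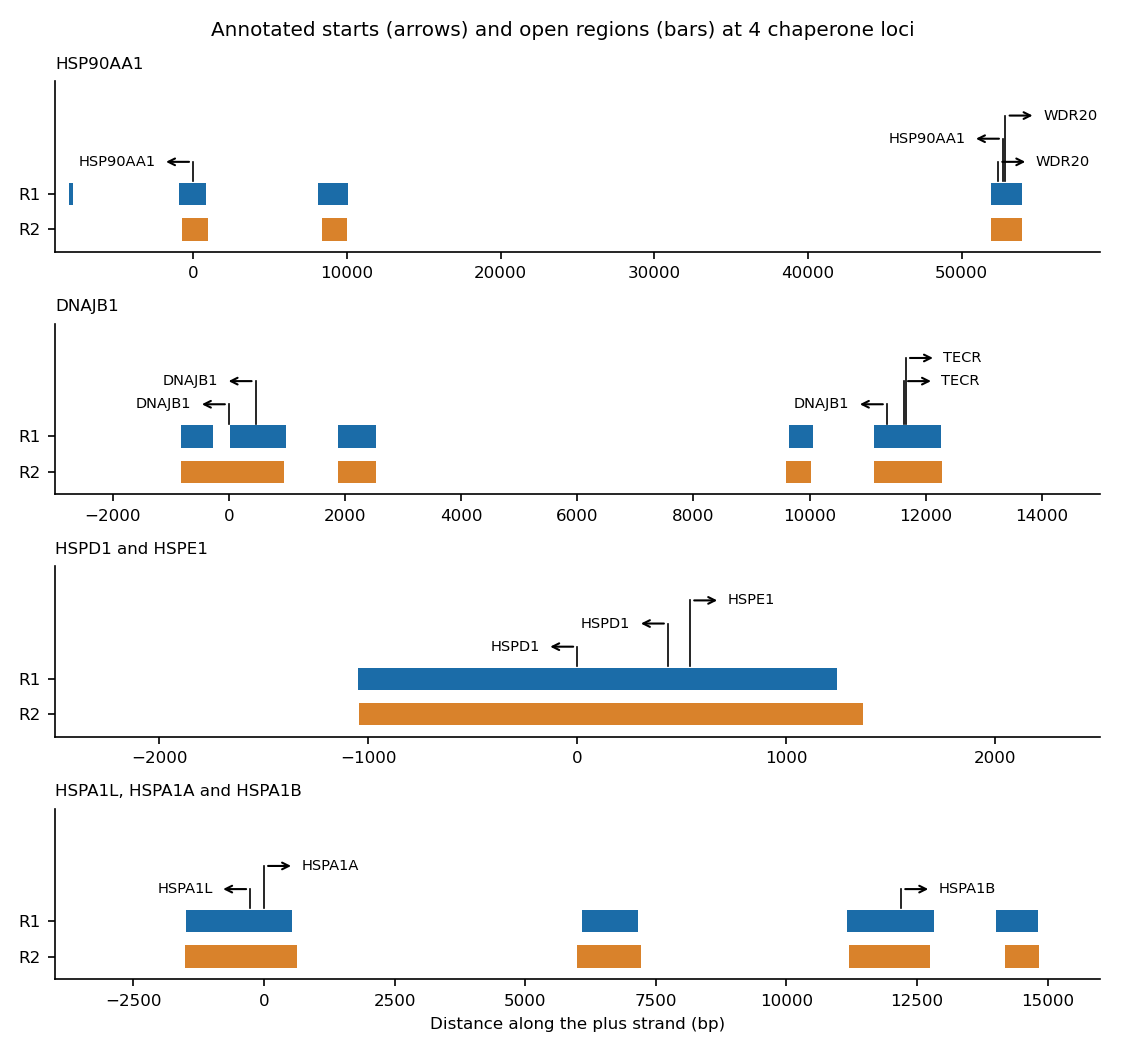
Accessible regions of R1 (blue) and R2 (orange) as bars and annotated starts as arrows pointing in the direction of transcription at 4 chaperone loci; the horizontal axes give the distance along the plus strand in bp from the inner start of HSP90AA1, DNAJB1 or HSPD1 or from the start of HSPA1A. HSP90AA1 and DNAJB1 each have regions at an inner and an outer start, while HSPD1 with HSPE1 and HSPA1L with HSPA1A each share 1 region.

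The mitochondrial chaperonin genes HSPD1 and HSPE1 face away from each other with outer starts 105 bp apart, under 1 region of fold 7.27 in R1 and 6.09 in R2. HSPH1, an HSP110, had 6.93 and 6.45, with 524 and 460 fragments. Its fragment numbers exceeded those of the shared chaperonin region, 441 and 363, in both lists.

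Small heat shock protein genes tended to have fewer fragments, with a family median of 252.5 in R1 and 281 in R2. HSPB1, the widely expressed HSP27, had the lowest fold of the family, 4.28 and 4.48, in a region 2187 bp wide in R1. HSPB8, which pairs with BAG3 to clear damaged proteins, had 5.17 and 6.07. HSPB6 had 6.88 and 7.41, with a region that begins just before its start and reaches over PROSER3. HSPB2 had 6.58 and 6.73. HSPB7, best known from heart, had 5.58 and 6.48 at its 3′ end and 2.90 and 2.54 over its promoter.

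HSPB3 and HSPB9 had no region over the promoter window. HSPB3, a muscle gene, was counted at the gene end because of a region past its 3′ end, with folds of 7.32 and 7.17 and with 101 and 103 fragments. HSPB9, a testis gene, had its nearest region 1124 bp away in R1 and 1146 bp away in R2.

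Of the DNAJA genes, which resemble the bacterial DnaJ in domain order, DNAJA3 is the mitochondrial form and had folds of 8.81 (R1) and 9.53 (R2). The cytosolic DNAJA2 and DNAJA1 had 8.50 and 6.82 in R1 and 8.23 and 6.61 in R2. DNAJA4 differed from them, with no region over its first and second starts. Its remaining start had a region of fold 4.71 in R1 and 3.86 in R2, with 44 and 39 fragments. The second start has 2 heat shock element pairs and a GC share of 73.7%. It is shown as a promoter with these letters and no region in either list.
DNAJA4, chr15:78264460-78264489, plus strand: ggaacctccgcGAAGGTTCtaggcctttgt
DNAJA4, chr15:78264499-78264528, plus strand: gtctccttgcgGAAGCTTCcgccggcgccg

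DNAJC genes, which share little beyond the J domain, held the strongest regions. DNAJC28 had folds of 13.63 (R1) and 13.66 (R2) with 483 and 494 fragments, the highest folds of the 78 genes. DNAJC24, which acts in the synthesis of diphthamide on elongation factor 2, had 12.07 and 13.41 in a region shared with DCDC1, and DNAJC18 had 11.56 and 12.01. DNAJC19 and DNAJC15, both linked to the import motor of mitochondria, had 12.80 and 11.76 in R1 and 11.88 and 11.05 in R2. These 5 genes had between 253 and 494 fragments, over recovered backgrounds of 23.4 to 35.8 fragments in R1. DNAJC9, a histone chaperone, joined a high fold (10.94 and 10.63) to high fragment numbers (661 and 648).

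By the mean percentile of fold within the lists, the lowest DNAJB and DNAJC genes with a region in both were DNAJB14, DNAJC16, DNAJB13, DNAJB5 and DNAJC4. DNAJB14, a membrane protein of the endoplasmic reticulum, had 2.68 in R1 and 3.28 in R2, and DNAJC16 had 3.69 in each. DNAJC16 nevertheless had 415 and 396 fragments, over a recovered background of 111.7 and 106.6. DNAJB5 had 4.84 and 4.06 with 363 and 297 fragments, and DNAJC4 had 5.12 and 4.82 with 406 and 397 in a region shared with NUDT22. DNAJB13, known from sperm tails and cilia, was low on both scales, with 4.79 and 4.05 and only 62 and 52 fragments. The highest fragment numbers of all 78 genes, 697 in R1 and 742 in R2, were at DNAJB12, whose fold of 8.14 and 8.84 was moderate.

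**Figure D4:**
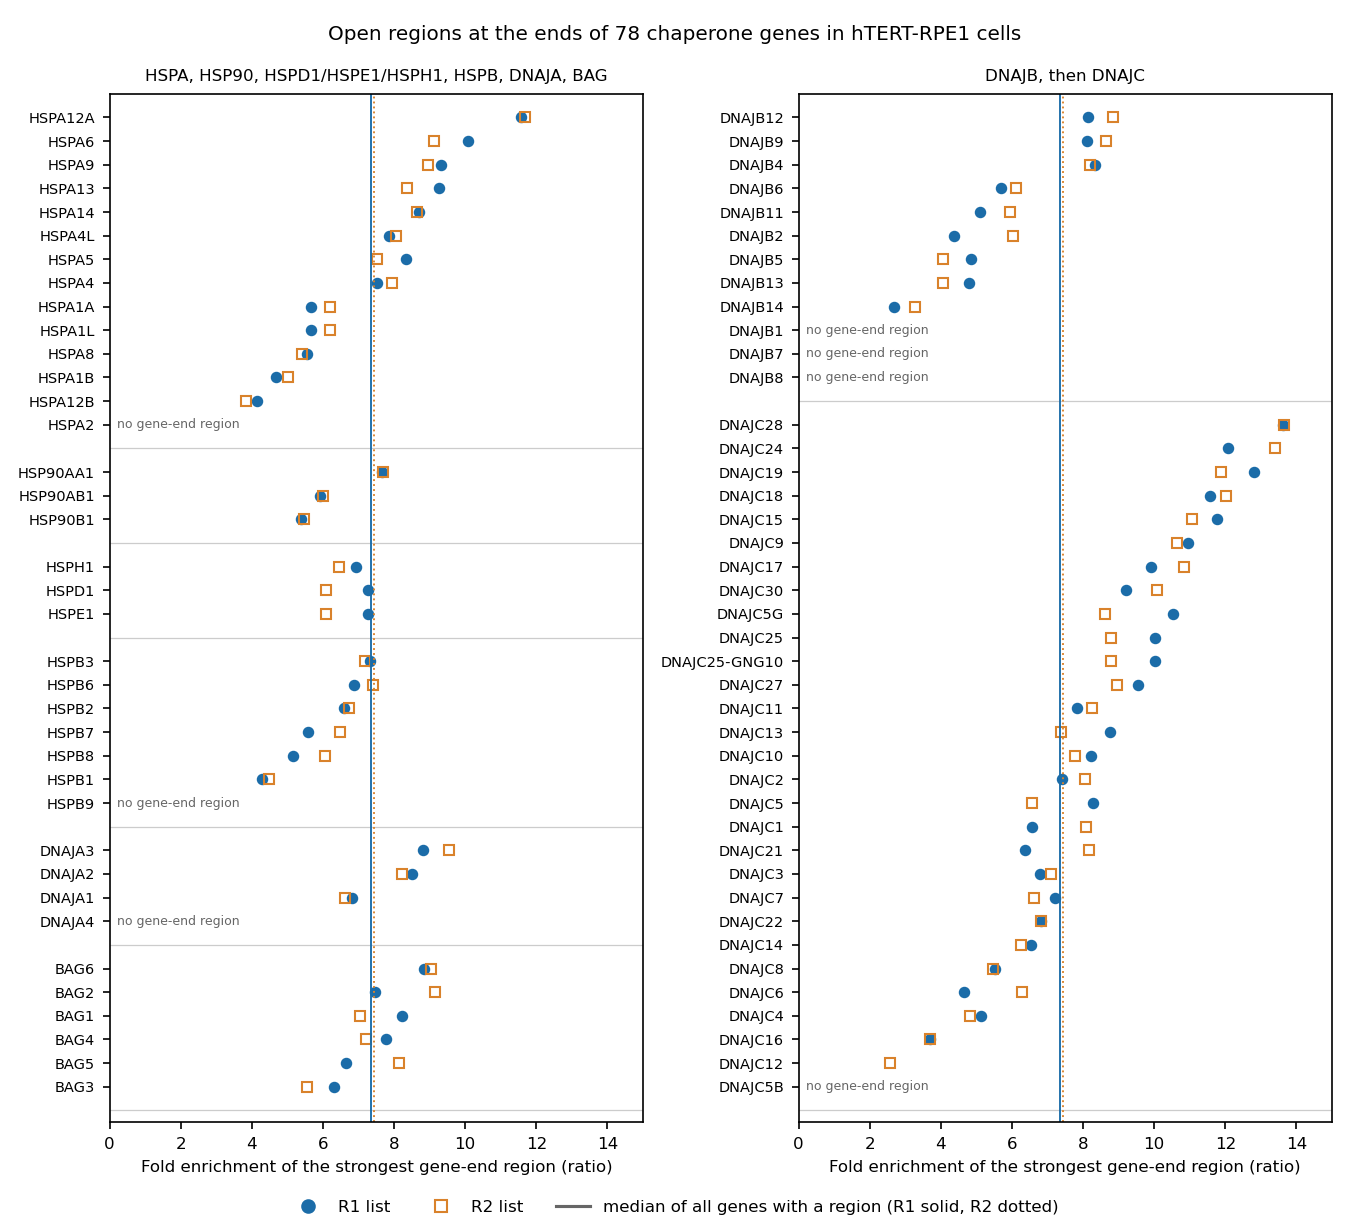
Fold enrichment (ratio, horizontal axes) of the strongest gene-end region of each chaperone gene in R1 (filled circles) and R2 (open squares), by family and ordered by mean percentile within the lists; vertical lines give the medians of all protein-coding genes with a region, 7.36 in R1 and 7.44 in R2. DNAJC28 is highest at 13.63 and 13.66, and 7 genes have no gene-end region in either list.

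Several genes without a gene-end region are known for expression in other tissues. DNAJB7 and DNAJB8, both testis genes, had their nearest regions 1974 and 1893 bp away in R1 and 1709 and 1893 bp away in R2. DNAJC5B, a testis relative of the cysteine string protein, had its nearest region 6862 bp away in R1 and 6720 bp away in R2. DNAJC12, a partner of aromatic amino acid hydroxylases, had 1 region of fold 2.57 with 26 fragments in R2, over its start, and in R1 its nearest region was 2048 bp away. DNAJC5G, another testis relative, was counted through a region towards its 3′ end, of fold 10.53 and 8.63, and had none over its promoter. Of 9 tissue-restricted chaperone genes, 5 were marked at a gene end in both lists, and 3 of the 8 with a promoter window had one there. Of 14 chaperone genes listed as HSF1-inducible, 13 were marked at a gene end and 14 at a promoter in both lists. The list also holds HSPA8 and HSP90AB1, described above as constitutive, and HSPD1 and HSPE1, which share 1 region. Over all chaperone genes the gene-end share was 89.7%, and over all protein-coding genes it was 73.9% at gene ends and 69.1% at promoters. The median of fragments was 191 in R1 and 156 in R2 over the 5 marked genes of the first list. Over the 13 marked genes of the second it was 435 and 407. On the first list DNAJC5G, HSPB3 and HSPB7 entered through regions at the 3′ end. HSPA1L entered through the region it shares with HSPA1A, which is on the second list. By fold the same lists had 5.65 and 6.48, and 6.82 and 6.09. All 8 mitochondrial members had a gene-end region, with median fragment numbers of 402.5 and 362.5, as did the 10 of the endoplasmic reticulum, with 363.5 and 360.5.

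BAG proteins are named for the BAG domain, which in several of them releases ADP from HSP70. BAG6, which guards proteins bound for membranes, had folds of 8.85 (R1) and 9.04 (R2), with 586 and 549 fragments, in a region shared with APOM. BAG1 had 8.22 and 7.03 in a region shared with CHMP5. BAG4 had 7.78 and 7.20 in a region shared with LSM1. BAG5 had 6.65 and 8.13 in a region shared with COA8, and BAG2 had 7.47 and 9.14. BAG3, the stress-inducible member that leads clients to autophagy, had the lowest folds of the 6, 6.31 and 5.54. Its promoter was 1 of 2 chaperone windows with an AP-1 site (TGACTCA or TGAGTCA, both strands), the other being that of HSPA6, and 4.01% of all windows had one.

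Strand was known for the genes with a promoter window. Among those 70, 64 had a region over at least 1 promoter window in both lists, against 69.1% of all 15812 genes of the promoter table. With the summit itself inside the window in both lists, the share was 25.7% of these 70, close to the 21.9% of all genes. For 67 chaperone genes longer than 2000 bp the ends of the interval could be told apart. A region lay at the 5′ end in both lists at 60 of them, against 73.6% of all such genes. At the 3′ end there was one at 14, against 20.8% of all such genes, a share near the background. Neither a gene-end nor a promoter region in both lists was found for DNAJB7, DNAJB8, DNAJC12 and HSPB9, nor a gene-end region for DNAJC5B, which had no window.

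Starts of another gene of any type, noncoding ones included, were sought on the opposite strand. They lay up to 1000 bp upstream of 29 of the 70 chaperone genes (41.4%) and of 22.1% of all 15812 genes. Pairs with a protein-coding partner include DNAJA1 with APTX (153 bp), DNAJB9 with THAP5 (106 bp), DNAJC30 with BUD23 (144 bp), DNAJC7 with NKIRAS2 (137 bp), BAG1 with CHMP5 (341 bp) and BAG5 with COA8 (303 bp). Other genes had only an antisense or divergent transcript as partner, such as DNAJC27 with DNAJC27-AS1 (18 bp) and HSPA5 with HSPA5-DT (313 bp). Of the 70 genes with a gene-end region, 27 (38.6%) had a strongest region that was at the end of the same other protein-coding gene in both lists. They include DNAJC25 and DNAJC25-GNG10, which have the same annotated start. Counted in R1 alone, and so not by the same measure, the share among all genes with a region was 28.4%. For 23 of the 27 (32.9% of the 70) a neighbour was not a chaperone gene by symbol, and the fold of such a region cannot be assigned to either gene. The 23 hold HSPD1 and HSPE1, counted through HSPE1-MOB4, which has the same start as HSPE1.

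The chaperone promoter windows had a median GC share of 65.0% and a median ratio of observed to expected CpG of 0.83, against 62.3% and 0.74 in all windows. Windows under a region in both lists had a CpG ratio of 0.85 among the chaperone genes and 0.83 among all genes. The 7 chaperone windows with a region in neither list had 0.41, and all such windows had 0.29. DNAJB7 was at the low end with 0.07, whereas HSPB9 had 0.90 and the second DNAJA4 start 1.03 without a region. In R1 the summit lay a median of 197 bp from the start in the chaperone windows and 188 bp in all windows.

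The other promoter letters were counted in the same windows. Pairs of repeat units (GAANNTTC or TTCNNGAA, which include those within the 3-unit elements) were in 24 windows (26.4%) of the chaperone genes and in 11.6% of all windows. CCAAT was in 35.2% and 34.6%, TATAAA in 13.2% and 9.46%, GGGCGG in 70.3% and 56.3%, and TGACGTCA in 3.30% and 2.26%, each on either strand. Of the 24 windows with a pair, 21 (87.5%) had a region in both lists, against 91.2% of all chaperone windows and 64.9% of all windows. The other 3 were those of DNAJB7, HSPB3 and the second start of DNAJA4.

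Genes that work with these chaperones under other symbols were described from lists, and the leading genes are those with the best mean percentile of fold over both lists. The counts of marked genes are read against a background of 73.9% of all protein-coding genes. Of 22 cochaperones of HSP70 and HSP90, both lists marked a gene end of 21, led by PPID (11.56 in R1 and 11.49 in R2) and TTC4 (11.21 and 11.45), and the muscle myosin chaperone UNC45B had none. Of 14 chaperonin and prefoldin genes 13 had one, led by CCT2 (13.84 and 12.09) and PFDN4 (11.61 and 10.82), and VBP1 had one only over its promoter (8.33 and 10.13). All 11 genes of the unfolded protein response had one, led by the lectin chaperone CANX (12.12 and 12.29) and by SEL1L (11.68 and 12.33). Over the promoter CANX had 7.71 and 6.74, while the SEL1L values were also those of its promoter. Among J-domain and small heat shock genes with other names, HSCB, which serves iron-sulfur cluster assembly, had one in both lists (9.09 and 8.30), and the lens gene CRYAA had a weak one in R2 alone (2.80). Among 6 heat shock factor genes, HSF2 (7.40 and 7.23) and HSF1 (6.57 and 5.98) led, HSF4 had one, and HSF5, HSFX1 and HSFX2 had none. With 3 of 6 marked, this small list fell below the share of all protein-coding genes. Of 72 pseudogenes of the chaperone families 9 (12.5%) were marked at a gene end in both lists, close to the background of 13.8% of all pseudogenes.

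The labelled cell type was checked against marker genes. Of 8 markers of retinal pigment epithelium, both lists marked an end of 5, at median folds of 4.01 (R1) and 4.81 (R2). Over all protein-coding genes the share was 73.9%, and the median folds were 7.36 and 7.44. MITF led with 7.79 and 8.04, followed by SERPINF1 with 6.15 and 5.54, and the other marked genes had folds of at most 4.81 in either list. RPE65 and TYR, which define the mature pigmented cell, had none, and LRAT had one over its promoter alone (7.12 and 8.23). Of the epithelial genes KRT8 (4.52 and 4.34) and KRT18 (3.62 and 3.81) had one in both lists, and CDH1 had one in R2 alone (2.06). Over its promoter KRT8 had a stronger region (5.99 and 6.34). Of 6 markers of other cell types, MYOD1 alone had one in both lists (4.52 and 4.61), PTPRC and SOX10 had one in R1 alone, CRYAA in R2 alone, and ALB and PECAM1 had none.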

How the data were processed

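Peak lists of merged ATAC-seq libraries were used as deposited, 1 per set, except that regions outside chromosomes 1 to 22 and X were left out. Genome build hg38 is named in the submitters' processing notes; how reads were aligned, peaks called and insertion sites shifted is not given in the sources used here. Per peak, the authors deposited a score, a fold enrichment (ratio) and p- and q-values as −log10; the lowest −log10 q was 1.31 in R1 and 1.30 in R2. Folds describe and rank regions within a list. Fragments over the summit and background were recovered as the whole number for which fold equals (fragments + 1)/(background + 1) and the Poisson tail matches −log10 p to 0.001, which held for 100.00% of peaks in each list; the relation is inferred from the values. The depth of each library is unknown, and no interval was computed.

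An overlap of at least 1 bp counted. Promoter windows are from RefSeq (GRCh38.p14). BAG4, DNAJC1, DNAJC5B, DNAJC22, DNAJC24, HSPA12B, HSPA14 and HSPB2 had no window. Positions are 1-based. Promoter identity came from a global alignment with Biopython 1.88. Simulated data gave 0 errors in 2000 overlap queries, 19156 fragment numbers and 500 planted motifs. The software was Python 3.11.15 with scipy 1.17.1, pandas 2.3.3 and numpy 2.4.6; matplotlib 3.10.9 drew the figures.

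The members and the gene lists were chosen with earlier results of these data known. All genes of the smaller families could be named; of DNAJB and DNAJC, the 5 highest and 5 lowest by mean percentile of fold, those without a region in both lists and those sharing a region; of other lists, the 2 highest and those without a region in both lists. DNAJB6, DNAJB12, DNAJC5G, DNAJC9 and HSF4 were named after their values were seen. Some items of these lists are not reported here. Alternatives covered windows, q-values, summits, each list alone and promoters in place of gene ends.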

Additional observations from a re-analysis of the deposited data

How the results depend on the processing

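The count of 70 chaperone genes marked at an end in both lists ranged from 60 to 74 over windows of 500 bp (69, or 88.5%, against 69.5% of all protein-coding genes) and 2000 bp (74, or 94.9%, against 78.5%), stricter q-values, stronger regions, summits in place of overlap and each list alone. The fewest were the 60 with stronger regions, 76.9% against 57.3%. The wider window added DNAJA4, DNAJB7, DNAJB8 and HSPB9, and the narrower one dropped HSPB3. Without genes whose region lies at the end of a non-chaperone gene, 47 of 55 had one. HSPD1 and HSPE1 were left out here through HSPE1-MOB4, which has the same start as HSPE1. The same share over all genes was not computed. The promoter count was 64, and 18 when the summit itself had to lie in the 300 base window in both lists, which is 25.7% of 70 against 21.9% of all 15812 genes, a share close to the background. The median fold of 7.37 in R1 became 7.27 with the 500 bp window, with the summit in the window and with the nearest region in place of the strongest. The median of 7.38 in R2 became 7.29 with 500 bp and 7.20 with 2000 bp, 7.39 with either stricter q-value, and 7.09 with the summit in the window and with the nearest region. Apart from the change to 7.39, these shifts exceed the difference of the medians between the lists (SD 0.007), which is no replicate error. The median fold of all protein-coding genes was not computed under these alternatives. No paired analysis was possible because each set is deposited as 1 merged list. Depth limits what can be said of the weak regions, such as DNAJC12 with 26 fragments: absence from a list means not detected at this depth.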
